A study of Mus musculus with 4 samples.

Results

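The genes described here are 10 receptors, decoys, antagonists and ligands of the interleukin-1 (IL-1) family in mouse regulatory T cells. They were taken by symbol from the array annotation, where 9 of the 10 had at least 1 probe naming that gene alone, out of 22180 genes measured in the same way. Il1rl1, the gene of the IL-33 receptor ST2, had no such probe and was not analysed here. Il1rap had 3 probes and each of the other 8 genes had 1, which makes 11 probes in all.

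Gene expression was measured on Affymetrix Mouse Gene 2.0 ST arrays, which read total RNA with many probes along each transcript. All mice had been immunized 7 days earlier with NP-OVA, a hapten coupled to ovalbumin, in CFA (complete Freund's adjuvant). They all carried the FoxP3YFP-Cre allele, which makes regulatory T cells express the fluorescent protein YFP and the Cre recombinase. KO mice had the genotype Prdm1fl/flFoxP3YFP-Cre, so that Cre acts on the floxed gene of the repressor Blimp-1 in cells that express Foxp3, and WT mice carried FoxP3YFP-Cre without floxed Prdm1. The KO TFR array and the WT TFR array hold follicular regulatory T cells sorted as PD1+CXCR5+YFP+CD4+. The KO non-TFR array and the WT non-TFR array hold regulatory T cells sorted as CXCR5-YFP+CD4+. Regulatory T cells with CXCR5 but without PD1 fall in neither gate. The sources used here give neither age nor sex, nor the number of animals pooled for an array. Each of the 4 groups is 1 array, so no value below has an error, a test or a p-value, and a difference between 2 arrays cannot be set against a spread between replicates.

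IL-1 signals through the receptor IL-1R1, which needs the accessory chain IL-1RAP, and through the adaptor MyD88 to NF-kB. Its access to that receptor is limited by IL-1R2, a decoy receptor that binds IL-1 but lacks a signalling domain, and by the IL-1 receptor antagonist encoded by Il1rn, which occupies the receptor without signalling. IL-18 is a related cytokine with a binding chain (Il18r1) and an accessory chain (Il18rap) of its own, and, like IL-1 beta, it is cut to its active form by caspase-1. In follicles, regulatory T cells are known for carrying the decoy receptor and the antagonist, and follicular helper T cells for the signalling receptor.

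Levels are on the log2 scale, where a difference of 1 is a 2-fold difference. No detection calls came with the values. The median level of all genes, 5.91, served as a limit: 5 of the 9 measured genes had a mean above it (Il1r2, Il1rn, Il1rap, Il18r1 and Il18rap), and Il18, Il1r1, Il1b and Il1a did not. A fold is given only where both arrays lay above that limit. Levels are compared between arrays and not between genes, since probes differ in brightness. In bulk RNA, fewer expressing cells and less RNA per cell cannot be told apart.

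Upstream sequence is shown for Il1r2, whose level differed most among these genes, and for Casp1, the caspase-1 gene, because both were higher in the same arrays. The RefSeq promoter table held all 10 genes, with between 1 and 3 starts each. The 250 bases before the only listed start of Il1r2 (chr1:40085843-40086092, GRCm38.p6, plus strand) and of Casp1 (chr9:5298267-5298516, GRCm38.p6, plus strand) read as follows, with motif matches in capitals.
Il1r2: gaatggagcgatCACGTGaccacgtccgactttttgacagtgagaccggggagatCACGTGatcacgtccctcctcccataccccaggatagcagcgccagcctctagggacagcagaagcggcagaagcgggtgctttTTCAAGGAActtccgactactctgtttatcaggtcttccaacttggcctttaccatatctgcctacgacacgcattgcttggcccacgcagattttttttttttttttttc
Casp1: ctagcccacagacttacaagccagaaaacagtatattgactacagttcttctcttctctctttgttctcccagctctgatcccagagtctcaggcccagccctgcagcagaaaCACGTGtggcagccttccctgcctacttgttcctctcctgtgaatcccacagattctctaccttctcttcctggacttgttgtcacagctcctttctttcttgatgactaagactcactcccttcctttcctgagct
The windows were searched for 4 motifs on both strands, and no match overlaps another. AGNGAAAG, the core of the sequence reported for Blimp-1, was in neither window and in no window of the other members, and in 7.30% of the 32851 promoter windows of this length. CACGTG, the E-box palindrome, was in 6.02% of all windows. It was found in Il1r2 at 238 and 195 bases before the start and in Casp1 at 137 bases before it. No window of the other members held it, and none of Casp4, the gene next to Casp1. This motif was added to the search after the sequences had been seen. TTCNNNGAA, the palindrome of STAT factors that the Bcl6 sequence resembles, lay 111 bases before the Il1r2 start as TTCAAGGAA and 219 and 152 bases before 1 of 3 listed Il18r1 starts, and 7.02% of all windows held it. GGANTTTCC, an NF-kB core, was in neither window, was found 19 bases before the Il18rap start, and was in 1.07% of all windows. A match describes the letters and does not show a bound site, and a missing match says only that these letters are not in the window.

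The decoy receptor gene Il1r2 had the widest range of the measured family genes. Its level was 11.73 in KO TFR cells, 10.70 in WT TFR cells, 10.11 in KO non-TFR cells and 7.35 in WT non-TFR cells. The WT non-TFR array was by far the lowest, and the KO array lay above the WT array in both populations. In TFR cells the genotype difference was 1.03 (2.04-fold higher in KO), the 42nd highest among the 11090 genes above the limit, and it lay close to the 2-fold line, at 0.999 after centring on the 75th percentile. In non-TFR cells the difference was 2.76 (6.75-fold higher in KO), the 2nd highest. Between the populations, Il1r2 was 1.62 higher in KO TFR than in KO non-TFR cells (3.08-fold) and 3.34 higher in WT TFR than in WT non-TFR cells (10.2-fold, the 11th highest). The 2 widest of these differences share the WT non-TFR array, so a single low array enters both.

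Il1rn, the gene of the receptor antagonist, separated the populations rather than ranking all 4 arrays. Its level was 8.44 in KO TFR cells and 7.53 in WT TFR cells, against 5.04 in KO non-TFR cells and 5.26 in WT non-TFR cells. Both TFR arrays were above the limit of 5.91 and both non-TFR arrays below it, so that the population differences of 3.40 in KO and 2.27 in WT mice may be compressed and are given without a fold. Among all 22180 genes the KO value was the 3rd highest population difference and the WT value the 67th highest. In TFR cells Il1rn was 0.91 higher in KO than in WT (1.88-fold), just short of 2-fold. In non-TFR cells the difference was -0.22 between levels that were both under the limit.

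**Figure D1:**
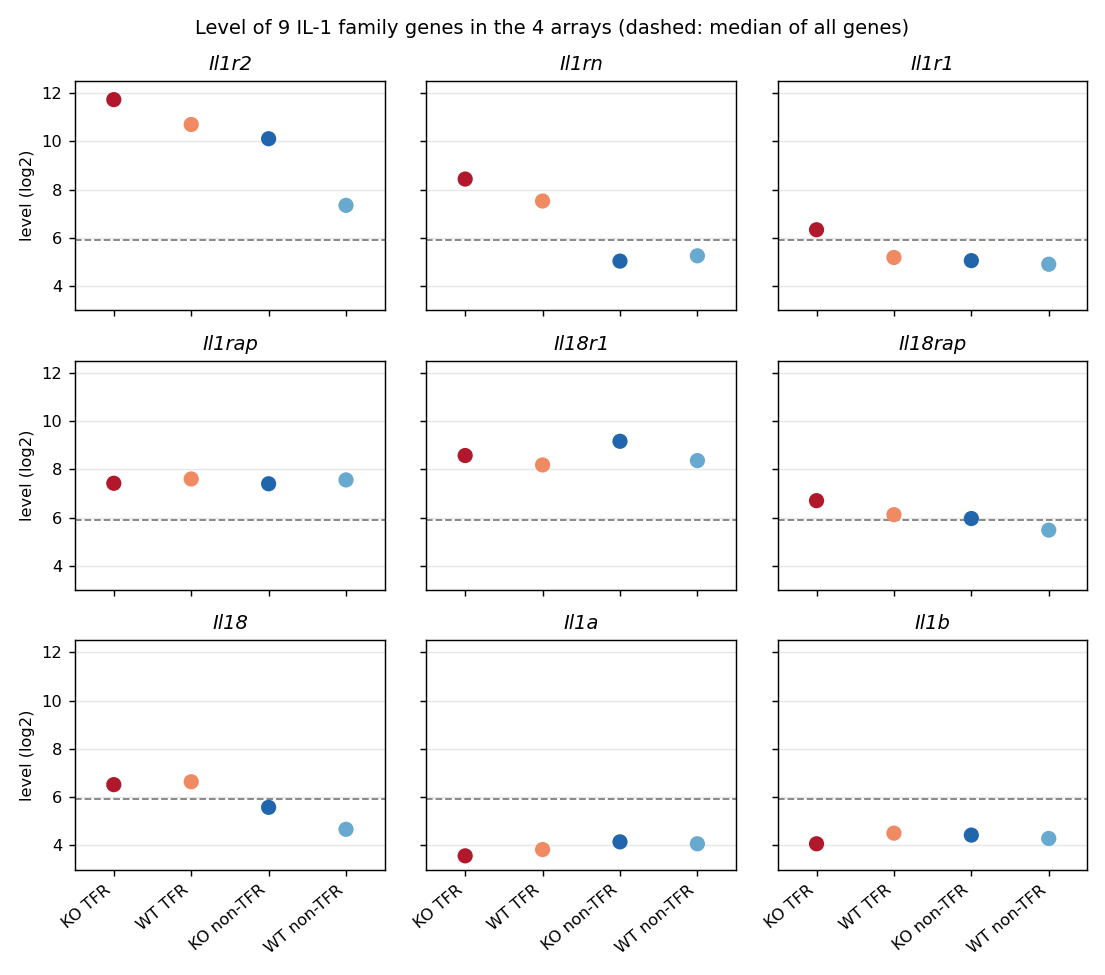
Level on the log2 scale (vertical axis) of the 9 measured IL-1 family genes in the KO TFR, WT TFR, KO non-TFR and WT non-TFR arrays, 1 point per array, with the median of all genes (5.91) as a dashed line. Il1r2 descends through the 4 arrays to 7.35 in WT non-TFR cells, Il1rn lies above the line in the TFR arrays alone, and Il1a and Il1b lie below it in every array.

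Il1r1, the gene of the signalling receptor, was above the limit in 1 array. Its level was 6.34 in KO TFR cells, 5.19 in WT TFR cells, 5.06 in KO non-TFR cells and 4.91 in WT non-TFR cells. The KO TFR array stood apart and the other 3 lay within 0.29 of each other. The difference was 1.15 between KO TFR and WT TFR cells and 1.28 between KO TFR and KO non-TFR cells, and both rest on that 1 array. Outside TFR cells the genotype difference was 0.15, and between the WT populations it was 0.29.

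Il1rap, the accessory chain shared by the receptors for IL-1, IL-33 and IL-36, was the flattest member. Its brightest probe had levels of 7.42 in KO TFR cells, 7.60 in WT TFR cells, 7.40 in KO non-TFR cells and 7.56 in WT non-TFR cells, a range of 0.20. The genotype differences were -0.17 in TFR and -0.16 in non-TFR cells. The population differences of 0.02 in KO and 0.04 in WT mice changed sign with the setting, between -0.13 and 0.16 in KO and between -0.07 and 0.14 in WT. The second and the third probe had means of 4.02 and 3.63, under the limit, and their differences lay between -0.43 and 0.17.

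The chains of the IL-18 receptor did not move together across the populations. Il18r1, the binding chain, had levels of 8.57 in KO TFR cells, 8.18 in WT TFR cells, 9.16 in KO non-TFR cells and 8.36 in WT non-TFR cells. It was highest in KO non-TFR cells, 0.79 above WT non-TFR cells (1.73-fold), and 0.40 higher in KO than in WT TFR cells (1.32-fold). TFR cells were the lower population, by -0.58 in KO and by -0.19 in WT (1.14-fold lower). Il18rap, the accessory chain that IL-18 signalling needs, had levels of 6.70 in KO TFR cells, 6.12 in WT TFR cells, 5.96 in KO non-TFR cells and 5.48 in WT non-TFR cells. These descend in the same order as those of Il1r2, in smaller steps: 0.57 and 0.48 between the genotypes in TFR and non-TFR cells, and 0.74 and 0.64 between the populations in KO and WT mice. None of these IL-18 receptor differences reached 2-fold.

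Among the ligands, Il18 differed between the arrays and the IL-1 genes stayed dim. Il18 had levels of 6.52 in KO TFR cells, 6.64 in WT TFR cells, 5.58 in KO non-TFR cells and 4.67 in WT non-TFR cells. Both TFR arrays lay above the limit and both non-TFR arrays below it. The population difference was 0.95 in KO and 1.97 in WT mice, and the genotype difference was -0.12 in TFR and 0.91 in non-TFR cells. Il1a had levels of 3.57 in KO TFR cells, 3.83 in WT TFR cells, 4.15 in KO non-TFR cells and 4.07 in WT non-TFR cells. Il1b, the other IL-1 ligand, had levels of 4.07 in KO TFR cells, 4.51 in WT TFR cells, 4.43 in KO non-TFR cells and 4.29 in WT non-TFR cells. All 8 values of these ligands were under the 25th percentile of gene means (4.70), and their differences, between -0.58 and 0.22, fell to 0 when values below that percentile were raised to it.

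Counts of differences are set against the same counts over all genes. Between KO TFR and WT TFR cells, 2 of the 9 measured members were at least 2-fold higher (Il1r2 and Il1r1) and none was 2-fold lower, while among all genes 0.289% were 2-fold or more higher and 0.162% lower. Of the 5 members above the limit 1 was 2-fold higher, and of all genes above it 0.442% were higher and 0.234% lower. Between KO non-TFR and WT non-TFR cells 1 of 9 was higher (Il1r2, also 1 of the 5) and none lower, against 0.433% higher and 0.0766% lower among all genes, and 0.775% and 0.126% among those above the limit. Members above the limit had to be bright in at least some arrays, so these counts describe the genes listed and support nothing about the family.

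Between KO TFR and KO non-TFR cells 3 of 9 members were at least 2-fold higher (Il1r2, Il1rn and Il1r1) and none lower, against 2.23% of all genes higher and 1.18% lower. Of the 5 members above the limit 2 were higher, against 3.03% of genes there, with 1.37% lower. Between WT TFR and WT non-TFR cells 3 of 9 were higher (Il1r2, Il1rn and Il18) and none lower, with 2.69% of all genes higher and 1.18% lower. Of the 5 above the limit 2 were higher, against 4.13% of genes there, with 1.36% lower. Both counts above the limit include Il1rn, whose mean passed it only through the TFR arrays, so they support nothing about the family. The median difference of the 9 members was 0.40 for the genotypes in TFR cells, 0.15 for the genotypes in non-TFR cells, 0.74 for the populations in KO mice and 0.29 for the populations in WT mice, while that of all genes lay between 0.00 and 0.03. Any 2 of these comparisons that have an array in common are not separate observations.

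**Figure D2:**
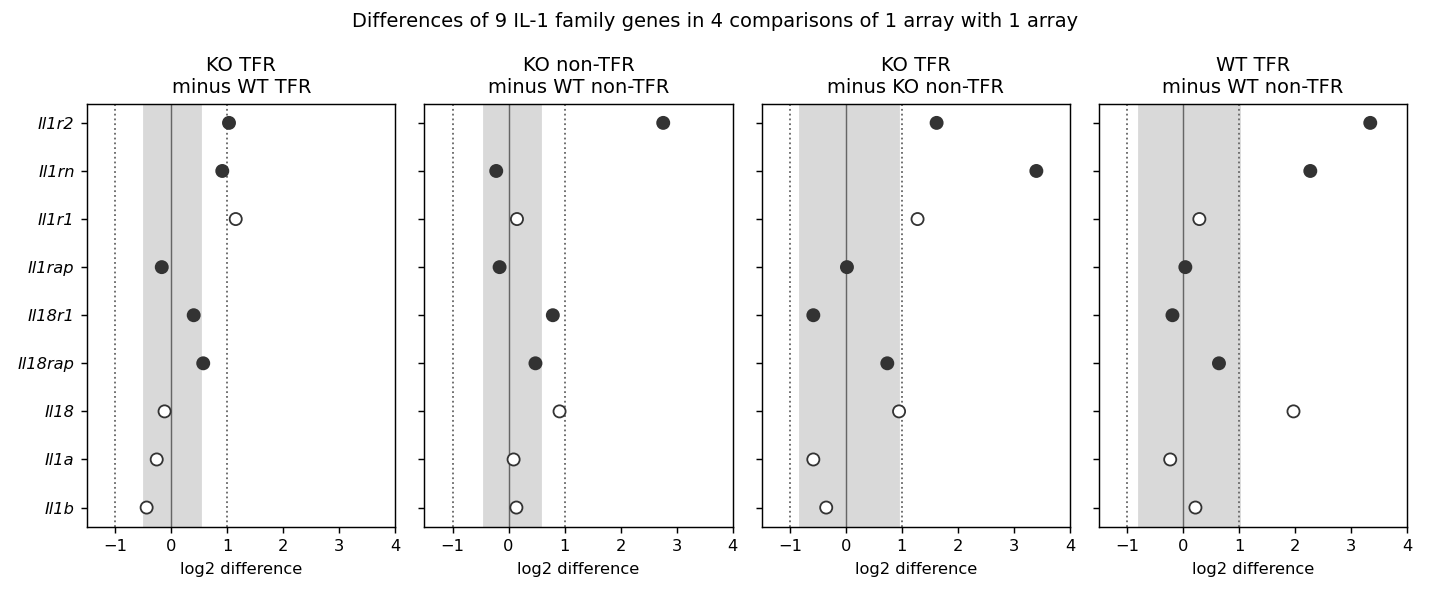
Log2 difference (horizontal axis) of each of the 9 measured genes in the 4 comparisons, with filled points for genes whose mean was above the limit of 5.91 and open points for the others. Dotted lines mark 2-fold and the grey band holds the middle 95% of all 22180 genes. Il1r2 lies right of the band in all 4 panels, Il1rn in all but the non-TFR genotype comparison.

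The genotype difference was not of one size in the 2 populations. For Il1r2 it was 1.72 smaller in TFR than in non-TFR cells (a difference of differences of -1.72), with the KO array higher in both. For Il18 the same quantity was -1.02, and for Il1rn and Il1r1 it was 1.14 and 1.00, since the KO array was the higher one in TFR cells alone for Il1rn and stood out there for Il1r1. The remaining values were 0.09 for Il18rap, -0.01 for Il1rap, -0.35 for Il1a, -0.40 for Il18r1 and -0.58 for Il1b. Levels under the limit enter several of these values: both non-TFR arrays for Il18 and Il1rn, and all arrays but KO TFR for Il1r1. Il1a and Il1b were under it in every array, and Il18rap in WT non-TFR cells. With 1 array in each group the differences of differences were not tested.

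Most receptor genes of the family are neighbours on mouse chromosome 1, in the order Il1r2, Il1r1, Il1rl2, Il1rl1, Il18r1 and Il18rap, per the RefSeq gene table. The large genotype difference of Il1r2 in non-TFR cells (2.76) was not seen in the genes at its sides, Map4k4 (-0.02) and Il1r1 (0.15), nor in Il1rl2 (0.03), the IL-36 receptor gene. Farther along, Il18r1 was at 0.79 and Il18rap at 0.48. In TFR cells the genotype difference was 0.14 for Map4k4, a kinase gene outside the family, 1.03 for Il1r2, 1.15 for Il1r1, 0.62 for Il1rl2, 0.40 for Il18r1 and 0.57 for Il18rap. Of these, Il1r2 and Il1r1 were past 2-fold, and Il18r1 lay inside the middle 95% of all genes (-0.48 to 0.53). Il1r1 and Il1rl2 were under the limit in all arrays but KO TFR. Beyond the cluster, the ion exchanger gene Slc9a4 was at -0.28 in the same comparison.

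**Figure D3:**
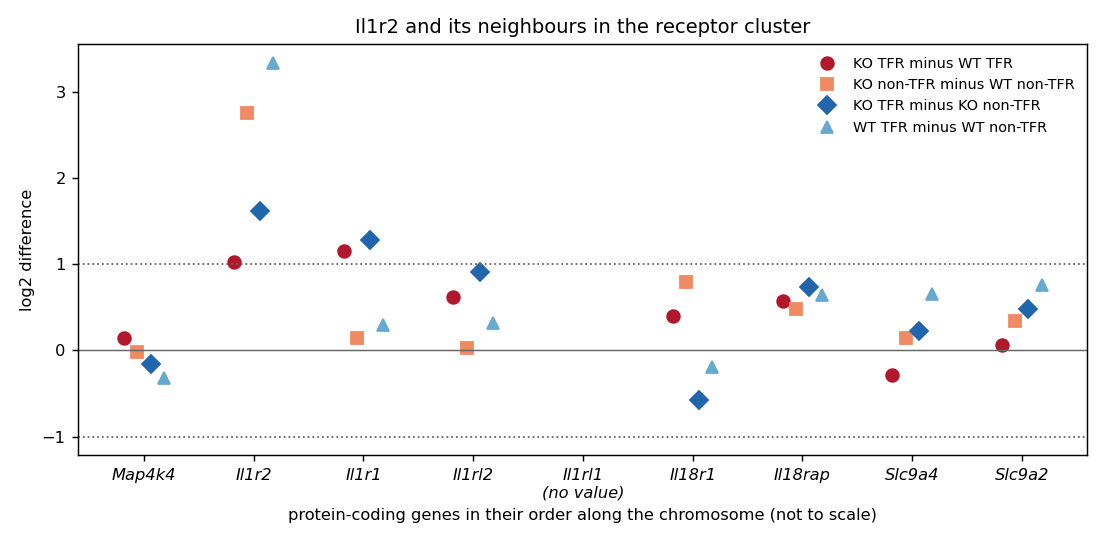
Log2 difference (vertical axis) of Il1r2 and its neighbouring protein-coding genes in their chromosomal order, with 1 marker for each of the 4 comparisons and dotted lines at 2-fold. Il1r2 stands above its neighbours in the non-TFR genotype comparison (2.76) and the WT population comparison (3.34), and Il1rl1 has no value.

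Il1rn lies in the IL-1 gene cluster of mouse chromosome 2, next to Il1f10 and the IL-36 genes. Across those neighbours the population difference in KO mice was 0.34 for Il1f10, -0.39 for Il36rn (Il1f5), 0.36 for Il36a (Il1f6), -0.07 for Il36g (Il1f9) and 0.22 for Il36b (Il1f8), against 3.40 for Il1rn. All 5 of these had means under the limit. Psd4, the neighbour on the other side, lay above it (9.47 to 9.87) and differed by 0.16.

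The remaining 11 family genes (Il1rl2, Sigirr, Il1rapl1, Il1rapl2, Il18bp, Il33, Il1f10 and the 4 IL-36 genes) were all measured. None was 2-fold apart in any comparison, while between 0.0766% and 2.69% of all genes were, in each direction of each comparison. With shares this low, the absence of calls among 11 genes is no result about them. Sigirr, an inhibitory receptor of the family, and Il18bp, the secreted binder of IL-18, were the 2 above the limit. Il1rl2 had the widest range, with levels of 5.99 in KO TFR cells, 5.36 in WT TFR cells, 5.08 in KO non-TFR cells and 5.05 in WT non-TFR cells. Sigirr had levels of 10.48 in KO TFR cells, 10.21 in WT TFR cells, 10.39 in KO non-TFR cells and 10.05 in WT non-TFR cells. The median difference of these 11 genes lay between 0.03 and 0.16 in the 4 comparisons.

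Among the other genes of the pathway, the widest ranges were in Casp1 and Casp4. They belong to a list of 7 genes linked to the processing of IL-1 beta and IL-18, which includes sensors and an adaptor. Casp1 had levels of 10.64 in KO TFR cells, 9.97 in WT TFR cells, 9.79 in KO non-TFR cells and 8.33 in WT non-TFR cells. Its neighbour Casp4, the sensor caspase of intracellular lipopolysaccharide, had levels of 10.11 in KO TFR cells, 9.58 in WT TFR cells, 9.47 in KO non-TFR cells and 8.17 in WT non-TFR cells. Both genes descend through the arrays in the order seen for Il1r2, with WT non-TFR cells lowest. Casp1 was 1.46 higher in KO than in WT non-TFR cells (2.75-fold) and Casp4 1.30 higher (2.47-fold), while in TFR cells the genotype differences were 0.67 and 0.54. Between TFR and non-TFR cells the differences were 0.85 for Casp1 and 0.64 for Casp4 in KO mice. In WT mice Casp1 was 1.64 higher (3.11-fold) and Casp4 1.41 higher (2.66-fold) in TFR cells. Casp1 and Casp4 are related in sequence, and signal shared between their probes was not examined. Of the other 5 processing genes, the inflammasome adaptor Pycard lay between 10.13 and 10.42, and the sensors Nlrp3 and Nlrc4 were under the limit in all arrays.

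Signalling genes downstream of the receptors differed little. Of 25 listed, 22 were measured, and Irak4, Chuk and Nfkb1 were not analysed here. None was 2-fold apart between the genotypes, against 0.442% of genes above the limit higher and 0.234% lower in TFR cells. In non-TFR cells these shares were 0.775% and 0.126%. Between the populations they were 3.03% and 1.37% in KO mice, and 4.13% and 1.36% in WT mice. With shares this low, few or no calls among 22 genes are no result about the pathway. Irak3, which encodes the inhibitory kinase IRAK-M, was the 1 gene 2-fold apart between the populations, with levels of 5.90 in KO TFR cells, 6.11 in WT TFR cells, 7.08 in KO non-TFR cells and 7.68 in WT non-TFR cells. It was lower in TFR cells by -1.18 in KO and by -1.57 in WT mice (2.97-fold lower in WT). Peli1, a ubiquitin ligase of the pathway, was at -0.79 and -0.49 in the same comparisons, and Nfkbiz, an inducible NF-kB cofactor, at -0.53 and -0.57. Tab1, a subunit of the TAK1 kinase complex, was 0.70 higher in KO TFR than in KO non-TFR cells, with -0.02 in WT. The adaptor Myd88 lay between 9.59 and 9.91. Counted by sign, 18 of the 22 were below 0 in the population comparison in both genotypes, with medians of -0.16 in KO and -0.13 in WT, while 48.4% of genes above the limit were below 0 in KO and 47.5% in WT. For the genotypes, 17 of 22 were below 0 in TFR cells (median -0.10) and 14 of 22 in non-TFR cells (median -0.06), with 46.1% and 44.2% of genes above the limit below 0.

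**Figure D4:**
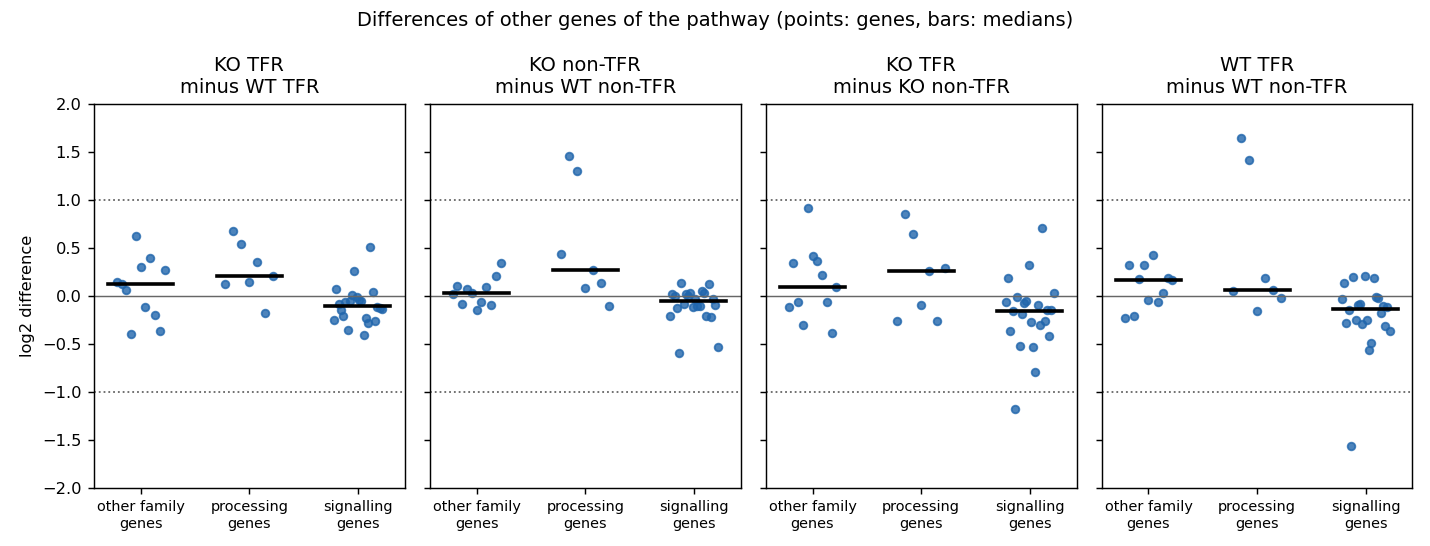
Log2 differences (vertical axis) of the 11 other family genes, 7 processing genes and 22 signalling genes in the 4 comparisons, 1 point per gene with the median as a bar and dotted lines at 2-fold. The 2 high processing genes in the non-TFR genotype panel are Casp1 (1.46) and Casp4 (1.30), which also lead the WT population panel (1.64 and 1.41), and the lowest signalling gene in the population panels is Irak3 (-1.18 in KO, -1.57 in WT).

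Genes closest in pattern were found for the 3 members that were above the limit and ranged over at least 1, by the distance between values after each gene's mean was subtracted. The distance is over 4 arrays and describes these arrays. The candidates were 10068 genes above the limit. Predicted genes, antigen receptor segments, small RNAs and some others had been left out by their symbols. Closest to Il1r2 was Pdcd1 (distance 0.98), the gene of the gate marker PD1, with levels of 10.68 in KO TFR cells, 9.86 in WT TFR cells, 8.96 in KO non-TFR cells and 7.44 in WT non-TFR cells. The cell cycle genes Prr11 (1.03) and Ccna2 (1.10) followed. Closest to Il1rn were Brip1 (0.59), Arhgap19 (0.61) and Mastl (0.72), and closest to Il18rap were Nf1 (0.06), Zkscan7 (0.08) and Slc26a2 (0.09).

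The follicular gate markers descended through the arrays in the order of some genes above, among them Il1r2, Il18rap and Casp1. Il1rn, Il18, Il18r1 and Il1rap did not share that order. Cxcr5 had levels of 10.39 in KO TFR cells, 9.52 in WT TFR cells, 8.90 in KO non-TFR cells and 8.06 in WT non-TFR cells, which is the order of Il1r2, Casp1 and Pdcd1. The summed signal of the 5 follicular T cell markers, on the linear scale, was 7236 in KO TFR cells, 4457 in WT TFR cells, 2778 in KO non-TFR cells and 1598 in WT non-TFR cells. The part of the follicular markers in the Il1r2 and Casp1 differences was not tested. Prdm1, the target, had levels of 7.32 in KO TFR cells, 8.21 in WT TFR cells, 7.59 in KO non-TFR cells and 7.80 in WT non-TFR cells. Its genotype difference was -0.89 in TFR cells and -0.21 in non-TFR cells. Whether its probe covers the deleted part was not tested. Foxp3 lay between 11.87 and 12.45, with a genotype difference of -0.49 in TFR and -0.02 in non-TFR cells. All 6 regulatory T cell markers were above the limit in every array. Between KO TFR and KO non-TFR cells 3 of the 6 were higher and 3 lower. Among the lower ones Il2ra differed by -1.23 (2.35-fold lower in KO TFR cells).

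IL-1 ligands, the antagonist and the decoy receptor are also made by myeloid cells, whose markers were checked. Of 7 measured monocyte and macrophage markers (8 listed) 1 was above the limit, Cd68, a lysosomal protein, with levels of 9.17 in KO TFR cells, 7.97 in WT TFR cells, 7.59 in KO non-TFR cells and 7.47 in WT non-TFR cells. The summed linear signal of the list was 769 in KO TFR cells, 431 in WT TFR cells, 375 in KO non-TFR cells and 362 in WT non-TFR cells, and this order is that of Cd68. The other 6 markers summed to 191 in KO TFR cells, 180 in WT TFR cells, 182 in KO non-TFR cells and 184 in WT non-TFR cells. All 6 were under the limit in every array, among them Lyz2 (4.08 to 4.46), Cd14 (4.17 to 4.56) and Csf1r (5.21 to 5.56). Without detection calls, sums of levels this dim cannot show whether such cells were present. The same limit applies to the lists below, whose markers other than the brightest were mostly under the limit.

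Of 8 neutrophil markers Mmp9, a secreted protease, was the 1 with a mean above the limit, at 5.79 in KO TFR cells, 6.54 in WT TFR cells, 5.57 in KO non-TFR cells and 6.43 in WT non-TFR cells, so that it was lower in both KO arrays. Ly6g, under the limit in every array, had levels of 5.42 in KO TFR cells, 4.64 in WT TFR cells, 4.49 in KO non-TFR cells and 5.06 in WT non-TFR cells. The 7 markers other than Mmp9 summed to 266 in KO TFR cells, 242 in WT TFR cells, 217 in KO non-TFR cells and 231 in WT non-TFR cells. For B cells (7 of 8 markers measured), the sum without the brightest marker, Cd79b, was 206 in KO TFR cells, 186 in WT TFR cells, 182 in KO non-TFR cells and 180 in WT non-TFR cells, and with it between 451 and 528. Dendritic cell markers (7 of 8 measured) without the brightest, Cd209a, summed to 233 in KO TFR cells, 231 in WT TFR cells, 199 in KO non-TFR cells and 181 in WT non-TFR cells, and with it to between 485 and 604, in another order. The 8 markers of mast cells and basophils without Kit summed to 154 in KO TFR cells, 154 in WT TFR cells, 168 in KO non-TFR cells and 181 in WT non-TFR cells, and with Kit to between 204 and 251. The 6 markers of CD8 T and NK cells summed to between 673 and 902, with both non-TFR arrays higher, and the order turned without Cd8b1: 247 in KO TFR cells, 277 in WT TFR cells, 220 in KO non-TFR cells and 217 in WT non-TFR cells. Cd8b1 (8.73 to 9.42) and Eomes (6.36 to 7.09) were above the limit in every array, and Klrb1c was above it in KO TFR cells alone (6.12). Cd8a, Ncr1 and Klrk1 were under the limit in every array.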

How the data were processed

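RNA of 4 sorted cell samples was hybridized to 1 array each, per the labels. The authors deposited 1 log2 value per probe (a transcript cluster) and array. The log2 scale was read from the values, which span 2.23 to 13.82. The submitters' processing notes list MAS5 without a version or role; other steps are not given there. Deposited array medians spanned 0.105, so all 41345 probes were quantile normalized with limma 3.58.1 in R 4.3.3, with no pseudocount. Of these probes, 23521 named 1 gene, 1814 several and 16010 none. Of the first, 23328 matched the RefSeq gene table (GRCm38.p6) by Entrez identifier, which also resolved older symbols. The brightest probe stood for a gene, leaving 22180 genes, 11090 of them above the limit of 5.91. Samples were grouped by title, and 4 pairs of arrays were compared without a test. The number of arrays limits the precision. Counting was tested on simulated data.

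All members were named. Up to 4 further family genes, 4 signalling genes and 3 processing genes with the widest range were to be named, with the 3 genes closest to a member. Sigirr, Il18bp, Myd88, Pycard, Nlrp3 and chromosomal neighbours were picked with their values in view. The members and lists were chosen with earlier results of these data known. Alternatives were other scalings (values as deposited, cyclic loess, 75th percentile), a floor, the mean of all probes, normalizing named probes alone, and other filters.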

Additional observations from a re-analysis of the deposited data

Results flagged for a closer look

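The following 5 results had opposite signs in the 2 groups of a contrast, each group being 1 pair of arrays, and no difference between them was tested. The KO minus WT difference of Il1rn was 0.91 in TFR and -0.22 in non-TFR cells (1.14 apart), with both non-TFR levels under the limit. That of Il18 was -0.12 in TFR and 0.91 in non-TFR cells (-1.02 apart), also with both non-TFR levels under the limit. For Il1a it was -0.26 in TFR cells against 0.09 in non-TFR cells (-0.35 apart), and for Il1b -0.44 in TFR cells against 0.14 in non-TFR cells (-0.58 apart), all between levels under the 25th percentile of genes. The TFR minus non-TFR difference of Il1b was -0.35 in KO and 0.22 in WT mice (-0.58 apart).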

How the results depend on the processing

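Under the 6 alternatives, 47 of 48 counts of members at least 2-fold apart stayed within 1.5 times their value. The exception was the count for KO over WT in TFR cells, which was 1 in place of 2 after centring on the 75th percentile, where Il1r2 was at 0.999. The difference of differences of Il18 was -0.996 with a floor, against -1.02. Of 216 single differences of members, 214 stayed on their side of 2-fold, and Il18 in KO TFR over KO non-TFR cells was at 1.05 as deposited, against 0.95. No member that was 2-fold apart changed sign. Part of this agreement was fixed in advance. The mean of all probes could alter Il1rap alone, and the floor altered Il1a, Il1b and Il18 alone. No member was 2-fold lower under any setting, so all counts of lower members stayed the same. As deposited, the median of all genes was 0.12 for the populations in KO and 0.11 in WT mice, so the populations differed by that much more on that scale. Among all genes, the filter moved 7 of 16 shares by over 1.5 times. The share 2-fold higher in KO TFR over WT TFR cells was 0.442% above the median level, 0.289% with no filter and 0.144% above the 75th percentile. In KO over WT non-TFR cells it was 0.775%, and 0.433% with no filter. Lower genes there made up 0.126%, 0.0766% with no filter and 0.018% above the 75th percentile. For the populations, the share higher was 3.03% and, above the 75th percentile, 1.51% in KO, and 4.13% and, with no filter, 2.69% in WT. No paired analysis was possible because each group is 1 array. Dim levels, with no detection calls, limit Il1a, Il1b, Il1r1 and Il18.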
